A study of Drosophila melanogaster with 12 samples.

Results

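Transposable element insertions are copies of mobile DNA at known places in the fly genome, and here 528 of them were described in RNA from adult fly heads. The 528 were the insertions of the deposited count table, out of 5736 insertion rows and 24228 features, that had at least 10 reads in 3 or more of the 12 libraries. They belonged to 79 of the 128 families in the table, a family being the name before the braces of the insertion's symbol (INE-1{}3411 is a copy of the INE-1 family). They were chosen by their read numbers in these libraries, so their presence above that minimum is no result. Just inside the rule were Tc1{}663 and F{}395, whose third-highest library had 10 reads, and those just outside were INE-1{}5511 and INE-1{}5810, whose third-highest library had 9 reads.

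The libraries were made from polyA RNA of whole heads of Drosophila melanogaster of the wild-type strain ORE-R, with 200 heads per library. Isolated females, group-housed females, isolated males and group-housed males had 3 libraries each. All flies first lived with both sexes for 3 to 5 days and then spent 7 days alone or in same-sex groups of 25. Replicate 0 of each group belonged to batch 1 and replicates 1 and 2 to batch 2. The labels name no separate culture for each pool of heads, so a p-value here reflects variation among libraries that may be technical. A head holds eyes, brain, fat body and other tissue, and in such bulk RNA fewer cells of a type and less RNA per cell cannot be told apart.

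Retrotransposons copy themselves through RNA, either with long terminal repeats (LTR) or without them (non-LTR), whereas DNA transposons move by excision and Helitrons by a rolling-circle mechanism. INE-1 is an old, short, non-autonomous element that is spread through the introns and the repeat-rich parts of the fly genome, above all on the small chromosome 4. In the fly, small RNAs keep these elements silent: PIWI-class proteins act in the gonad, and AGO2 with Dcr-2 in somatic tissue such as the brain. A read in an insertion can come from the element's own promoter or from a transcript of the surrounding gene, and the counts do not separate these sources.

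The insertions were a small part of the RNA measured. Feature counts per library lay between 2584050 and 17122099, and all insertion rows held 0.19% to 0.291% of them. Of 255951 insertion reads in the 12 libraries, 88.2% fell in the 528 insertions and 20.9% of the reads in those fell in the 10 most-read ones. A further 2625 insertion rows had no read in any library. Of the 528, 101 had at least 10 reads in all 12 libraries and 51 in exactly 3. The expression filter applied to the whole table let 410 into the tests and left 118 out. In libraries of 1 sex only, 20 members reached 10 reads, 5 of them in females and 15 in males. This way of entry favours a difference between the sexes. The rule uses raw reads, however, and isolated female replicates 1 and 2 were the shallowest libraries (2584050 and 3224485 counts), so depth also enters the split. Of the 20, 6 were tested, and 4 were called in a comparison of the sexes.

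The libraries of isolated females had insertion shares of 0.243%, 0.232% and 0.224%, against 0.217%, 0.19% and 0.291% in group-housed females. The isolated male libraries had 0.285%, 0.24% and 0.285%, against 0.225%, 0.255% and 0.273% in group-housed males. The ranges of isolated and group-housed libraries overlapped in both sexes. Group-housed female replicate 2 stood apart from its group with the highest share of all 12 libraries. The mean share was 0.233% ± 0.00973 in isolated females and 0.27% ± 0.0259 in isolated males (SD, n = 3 each; two-sided exact permutation test, p = 0.2, adjusted over 4 comparisons 0.8). With 3 libraries against 3 this test cannot give a p below 0.1, and the other 3 comparisons of the total share had exact p-values of 0.5 to 1.

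**Figure D1:**
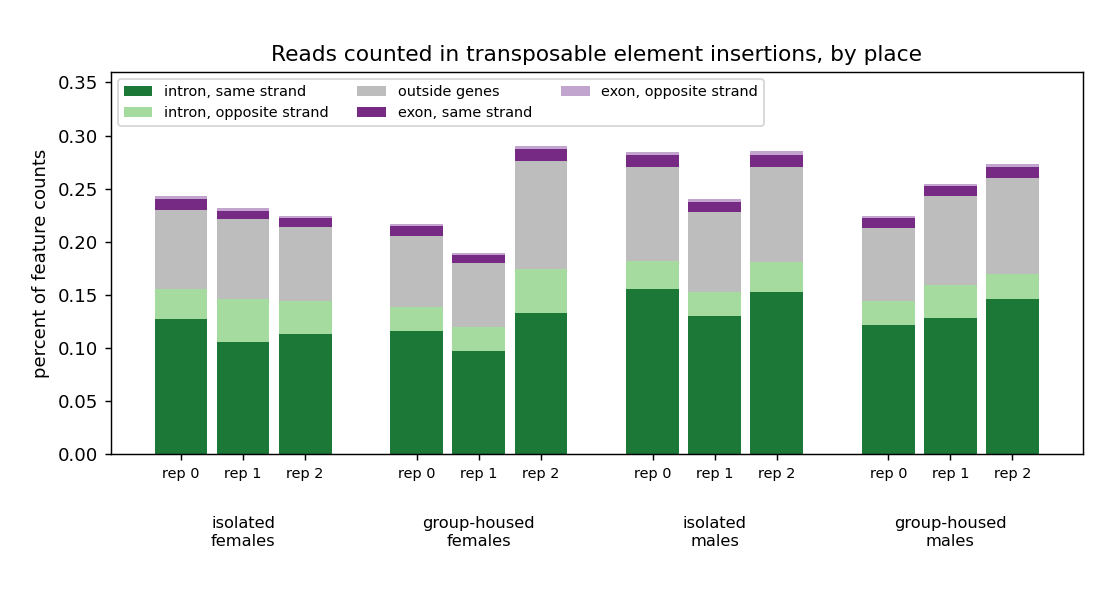
Percent of each library's feature counts (y axis) that fell in transposable element insertions, split by the insertion's place relative to annotated genes, for the 3 libraries of each group (x axis). Same-strand introns hold the largest part in every library, and group-housed female replicate 2 has the highest total, 0.291%.

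Most of the 528 insertions lay inside genes and pointed the same way as the gene. By their identifiers in the BDGP6.54 annotation, 288 were in introns on the strand of the gene, 54 in introns on the opposite strand, 17 in exons on the same strand, 6 in exons on the opposite strand and 163 outside genes. Of the exonic ones, 4 overlapped coding sequence, 6 a 5′ UTR and 11 a 3′ UTR. Of those outside genes, 71 lay within 1000 bp of a gene.

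Strand relative to the gene went with read number although the table holds nearly equal numbers of rows in each direction. Introns had 1267 insertion rows on the gene's strand, of which 22.73% were members, and 1180 rows on the opposite strand, of which 4.576% were. Per kilobase of insertion, same-strand intron rows had 82.51 reads over the 12 libraries, opposite-strand intron rows 15.13 and rows outside genes 19.07. Exonic rows had 30.64 reads per kb on the gene's strand and 6.761 on the opposite strand. No source used here tells how the counting used strand. Reads overlapping several features, 2.75% to 3.03% of each column, stood in a line of their own, so exonic insertions can be undercounted.

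Chromosome 4, a small chromosome on which active genes lie among repeats, held 150 of the members, 26.5% of its 566 insertion rows. The other arms kept between 5.414% (X) and 8.249% (3R) of their rows, and Y 4%. Reads on chromosome 4 were 42.1% of all member reads. Within same-strand introns alone, 97 of 199 rows on chromosome 4 were members (48.74%), against 10.77% on X and 18.48% to 21.83% on the large autosomal arms.

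**Figure D2:**
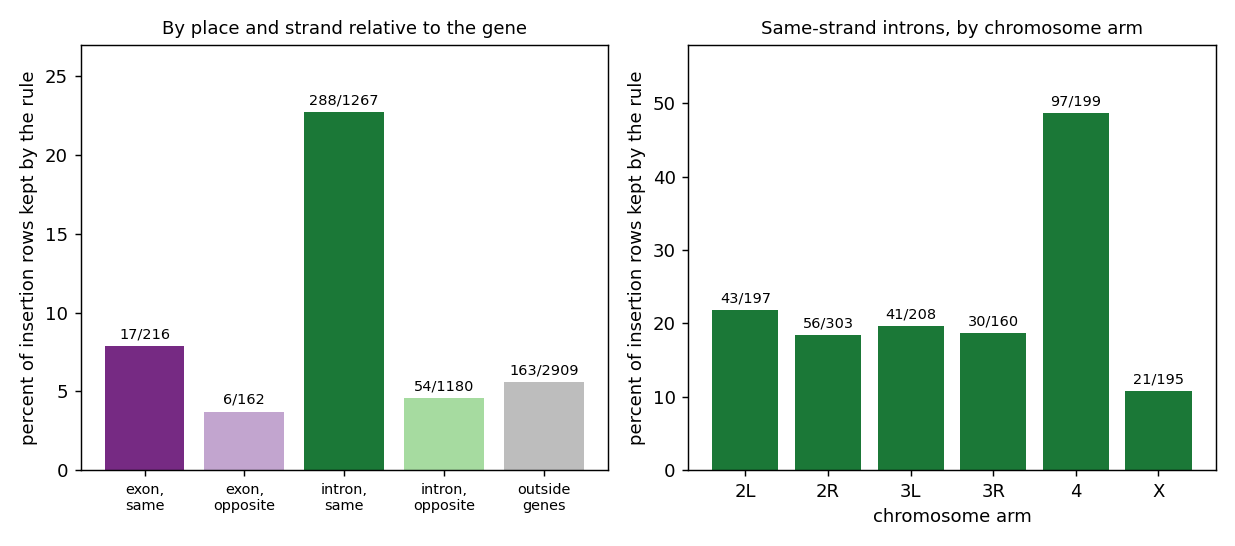
Percent of insertion rows kept by the rule (y axes), by place and strand relative to the gene (left) and, for same-strand introns, by chromosome arm (right); numbers above the bars are members over rows. Same-strand introns (22.73%) and chromosome 4 (48.74% of its same-strand intron rows) stand above the other bars.

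Several genes carried many members. Cadps, which acts in the release of dense-core vesicles, and sxc, which encodes the O-GlcNAc transferase, held 9 each. Stlk held 7 and unc-13, a synaptic vesicle priming factor, held 6. With 5 members each followed AGO3, a PIWI-class protein, CaMKII, a kinase of learning and memory, nrv3, a subunit of the sodium pump, Nipped-B, nrm, pho, CG2225 and CG17528. In all, the members within genes lay in 224 different genes.

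The 5 INE-1 copies in CaMKII introns together had 155 ± 18 CPM (edgeR's counts relative to the TMM-scaled library size) in isolated females, against 118 ± 28.4 in group-housed females (SD, n = 3 each). In isolated males they had 148 ± 29 CPM, against 141 ± 9.69 in group-housed males. The 9 insertions of Cadps summed to 69.2 ± 16.5 CPM in isolated females and 63.3 ± 17.8 in group-housed females, and to 94.7 ± 15 in isolated males and 83.1 ± 9.62 in group-housed males. In both genes the SDs of the housing groups overlapped.

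By class, INE-1 gave 206 members, LTR retrotransposons 124, non-LTR retrotransposons 109 and DNA transposons 89. INE-1 held 41.5% of member reads and 83% of its members were in same-strand introns. LTR members were in same-strand introns in 26.6% of cases and outside genes in 45.2%, and non-LTR members in 32.1% and 50.5%. Per length, the median level was 9.93 CPM per kb for INE-1, 2.35 for DNA transposons, 1.22 for non-LTR and 0.518 for LTR elements. The classes also differ in length: the median was 200.5 bp for INE-1 members and 6601 bp for LTR members. The rule asked for the same number of reads at any length, so a short insertion needed a higher level per kb to enter. The order of the classes per kb was therefore partly set by the rule.

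The member with most reads was INE-1{}3385 (FBti0061446), 541 bp in a CaMKII intron on the gene's strand (chromosome 4, 1042174 to 1042714, minus strand). It had 97.2, 143.2 and 132.8 CPM in isolated females, against 77.12, 72.46 and 107.6 CPM in group-housed females. Its level was 115.8, 84.65 and 133.8 CPM in isolated males, against 96.66, 107.5 and 115.1 CPM in group-housed males. Housing groups overlapped in each sex, and the difference did not pass in females (log2 fold change 0.52 ± 0.18 (SE), edgeR adjusted p = 0.1717). Per kb it stood at 197.8 CPM, and only INE-1{}2718, a 48 bp copy in an unc-13 intron at 221.1 CPM per kb, was higher among the tested members.

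The next members by level were of several families. 1360{}1514, a DNA transposon 119 bp beyond CaMKI on the same strand, averaged 58.8 ± 4.8 CPM in isolated females, 53.4 ± 21.2 in group-housed females, 70.4 ± 16.0 in isolated males and 72.2 ± 17.3 in group-housed males. HMS-Beagle{}26 on X, an LTR element of 7060 bp that lies 104 bp from the translation factor gene eIF3g1, averaged 43.5 ± 14.2 CPM in isolated females, 53.2 ± 34.0 in group-housed females, 42.4 ± 24.1 in isolated males and 39.4 ± 12.1 in group-housed males (SD, n = 3 each). Its highest library was group-housed female replicate 2, at 92.34 CPM. INE-1{}5345, in an intron of the calcium pump gene PMCA, had 42.44, 55.84 and 55.26 CPM in isolated females, against 29.19, 25.38 and 39.66 CPM in group-housed females. These groups did not overlap, and the difference missed the threshold (log2 fold change 0.69 ± 0.20 (SE), edgeR adjusted p = 0.0721). PMCA itself differed by 0.25 on the log2 scale (edgeR adjusted p = 0.559).

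hopper2{}4186 in an nrv3 intron, INE-1{}5364 beside lncRNA:CR44024, Rt1b{}990 in a bru3 intron on the opposite strand, Cr1a{}1621 in a dpr7 intron and F{}1572 in a Cadps intron averaged 25.9 to 42.6 CPM over the 12 libraries. None of them passed in any of the 5 contrasts. Rt1b{}990 was the most variable of these in isolated females, at 26.78, 80.16 and 37.88 CPM, against 17.14, 11.34 and 43.17 CPM in group-housed females.

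Doc{}CHKov1[Doc1420] (FBti0019430, 3R, 25324412 to 25328927, minus strand) is a non-LTR element inside CHKov1, known in flies because this insertion is linked to resistance to insecticide and virus. It had 52.6, 33.78 and 52.13 CPM in isolated females, against 46.18, 30.2 and 41.11 CPM in group-housed females. These groups overlapped (log2 fold change 0.25 ± 0.19 (SE), edgeR adjusted p = 0.6148). The row of CHKov1 rose to 72.1 ± 16.5 CPM in isolated females, against 44.6 ± 4.75 in group-housed females (SD, n = 3 each; log2 fold change 0.66 ± 0.14 (SE), edgeR adjusted p = 0.00984). Whether the insertion and the rest of the gene differed in their response was not tested.

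Isolation in females raised a single insertion. INE-1{}3411 passed the threshold of 0.05 as the only one of 410 members tested, 0.244% of them, where 3.48% of the 10238 features tested passed (3.26% higher and 0.215% lower). At an unadjusted p under 0.05 there were 21 of 410 members, where 14.3% of all features stood. Above 0 were 244 members (59.5%), against 47.6% of all features. The median log2 fold change was 0.16 over the members and -0.02 over all features. With library totals alone in place of TMM scaling, these medians were -0.04 and -0.23, so the sign of the members' median depended on the scaling while its place above all features did not.

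INE-1{}3411 (FBti0061472) is a 741 bp copy on chromosome 4 (1079449 to 1080189, plus strand) in an intron of Actbeta, an activin-type ligand, on the strand opposite to that gene. The nearest gene before it on its own strand is apolpp, the apolipophorin that carries lipids and is made by the fat body, which ends 2176 bp upstream. The insertion had 29.59, 24.32 and 28.85 CPM in isolated females, against 13.95, 8.083 and 8.882 CPM in group-housed females. Every isolated female library was above every group-housed one. The difference in log2 was 1.41 ± 0.27 (SE), with an edgeR adjusted p of 0.004793, at 1.07 within batch 1 and 1.62 within batch 2. It stayed past the threshold with any 1 library left out (highest edgeR adjusted p = 0.0411), but not with library totals alone as the scaling (0.0531), in batch 2 alone (0.0543) or with isolated females represented by replicate 0 alone (0.272).

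In males the same insertion had 8.107, 11.44 and 10.83 CPM after isolation, against 6.63, 6.656 and 4.437 CPM in groups. The male groups did not overlap either, but the difference of 0.79 ± 0.27 (log2, SE) did not pass (edgeR adjusted p = 1). The female response minus the male response was 0.62 ± 0.38 (log2, SE), which did not pass (edgeR adjusted p = 0.8366).

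Of the genes around INE-1{}3411, apolpp had 14700, 16200 and 13800 CPM in isolated females, against 7110, 6800 and 10500 CPM in group-housed females (log2 fold change 0.87 ± 0.23 (SE), edgeR adjusted p = 0.0501). Actbeta had 179, 150 and 170 CPM in isolated females, against 148, 130 and 228 CPM in group-housed females (log2 fold change 0.00 ± 0.19 (SE), edgeR adjusted p = 0.996). A summed list of 5 fat body genes (Fbp1, Yp1, Yp2, Lsp2 and apolpp) stood at 34600 to 50900 CPM in isolated females, against 13100 to 23500 in group-housed females. In males it stood at 7090 to 9250 CPM after isolation, against 7270 to 8870 in groups. The sum holds apolpp itself, which alone had 7470, 5700 and 6310 CPM in isolated males. It also holds the yolk protein genes Yp1 and Yp2, so it does not measure the amount of fat body, above all between the sexes. The part of fat body RNA in the insertion's difference was not tested. INE-1{}3410, in an apolpp intron on the gene's strand and in a Zyx intron on the opposite strand, had 9.396, 18.91 and 11.47 CPM in isolated females, against 3.449, 6.523 and 9.915 CPM in group-housed females. These groups overlapped by 1 library, and the log2 fold change of 1.06 ± 0.35 (SE) did not pass (edgeR adjusted p = 0.1256).

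**Figure D3:**
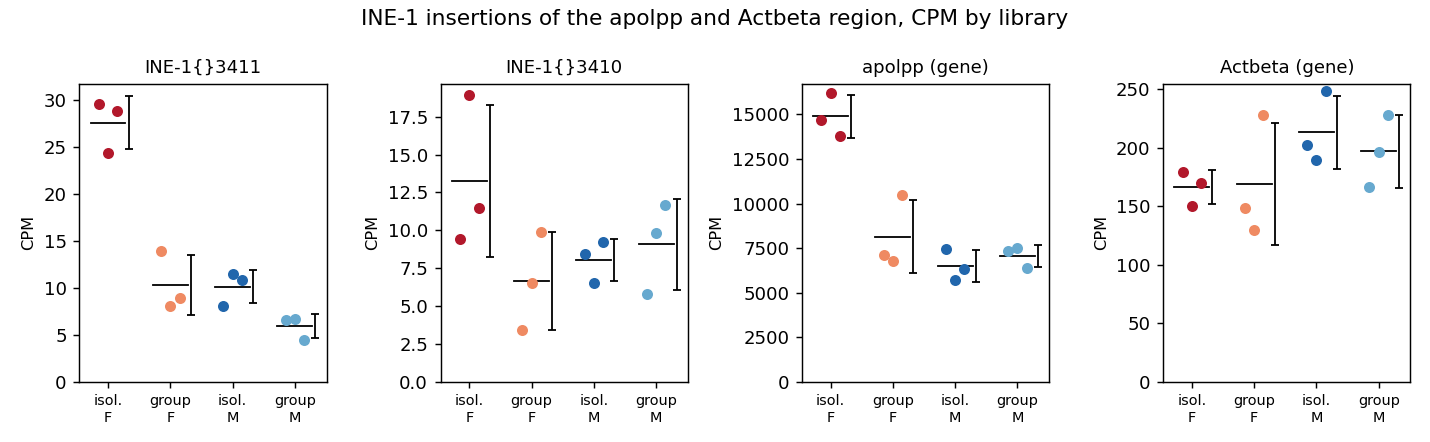
CPM (y axes, linear, from 0) of 2 INE-1 insertions and of the genes apolpp and Actbeta in each library (points) of isolated (isol.) and group-housed (group) females (F) and males (M); lines are means and bars SD. INE-1{}3411 and apolpp are highest in the 3 isolated female libraries, whereas Actbeta overlaps between isolated and group-housed flies of each sex.

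The female comparison depended on group-housed female replicate 2, the library with the highest insertion share. Without it, 7 members passed in place of 1, and 464 of 10643 features. These were 297{}93, INE-1{}3411, INE-1{}5345, INE-1{}4141, HMS-Beagle{}347, INE-1{}3385 and INE-1{}3410, all higher in isolated females, with log2 fold changes of 0.68 to 3.25. Without isolated male replicate 1, 2 members passed, and the count over all features in that fit is not given here. All libraries share 1 estimate of the spread. The names INE-1{}4141 and HMS-Beagle{}347 were chosen after their values were seen.

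In males, isolation raised or lowered no member (edgeR), where 0.0781% of all features tested passed. At an unadjusted p under 0.05 there were 7 of 410 members, where 2.66% of all features stood. DESeq2 and limma-voom also called 0, and edgeR without a filter beyond 1 read called 1. Besides INE-1{}3411, the smallest p-values were those of 297{}4635 and Cr1a{}6093. Cr1a{}6093, a non-LTR copy beside Taf3 on chromosome 4, had 1.453, 1.492 and 2.165 CPM in isolated males, against 0.52, 0.3328 and 0.6339 CPM in group-housed males (log2 fold change 1.71 ± 0.69 (SE), edgeR adjusted p = 1). Its groups did not overlap, on 54 and 15 reads. 297{}4635 had 19 reads in isolated males and 1 read in group-housed males, a ratio of 16.2 with a 95% counting interval of 2.58 to 675, and its isolated male replicate 2 had none. The median over members was 0.07 on the log2 scale, against 0 over all features.

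The insertions higher in group-housed females than in group-housed males were all LTR elements. Among group-housed flies 7 of 410 members passed (1.71%), where 2.73% of all features did, 6 of them higher in females (1.49% of all features) and 1 lower (1.23%). The 6 were accord{}818, gtwin{}6523, mdg1{}1047, Circe{}2326, 297{}93 and 297{}4635, and the lower one was the DNA transposon transib2{}4381. Of the 102 LTR members tested 6 passed, of the 66 DNA transposon members 1, and of the 91 non-LTR and 151 INE-1 members 0; whether the classes differ was not tested. Of the 7, the 4 insertions 297{}93, mdg1{}1047, Circe{}2326 and transib2{}4381 had reached 10 reads in 1 sex only. That left 3 calls among members with 10 reads in both sexes. Of these 3, gtwin{}6523 and 297{}4635 lay under the expression filter in most male libraries and entered the tests mainly through female libraries. Their entry thus also favours a difference between the sexes. The median log2 fold change was -0.17 over the members, against -0.01 over all features. Above 0 were 137 members (33.4%), against 48.9% of all features.

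gtwin{}6523 (FBti0215301), a 7411 bp copy on X (21836372 to 21843782, minus strand), lies outside genes, 45641 bp from lncRNA:flam, the source of small RNAs against LTR elements in ovarian somatic cells. It had 7.671, 6.239 and 3.512 CPM in group-housed females, against 1.885, 0.3328 and 1.141 CPM in group-housed males. Every female library was above every male one (log2 fold change 2.37 ± 0.47 (SE), edgeR adjusted p = 0.008609; 1.91 in batch 1 and 2.5 in batch 2). In isolated flies it had 11.88, 8.557 and 5.561 CPM in females, against 1.147, 0.8701 and 0.7873 CPM in males, again without overlap (log2 fold change 3.16 ± 0.49 (SE), edgeR adjusted p = 0.001033; 3.15 in batch 1 and 2.77 in batch 2). Both calls held with any 1 library left out, though not in batch 2 alone (edgeR adjusted p = 0.156 in groups and 0.0815 in isolated flies). With isolated females represented by replicate 0 alone, the log2 fold change in isolated flies was 3.14. gtwin{}6523 entered the tests through female libraries, since most male libraries lay under the expression filter. The separation of the sexes was thus partly set by that filter. lncRNA:flam had between 0 and 4 reads in each library and was not tested.

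accord{}818 (FBti0018951), the only member of its family, is a 5225 bp copy in an intron of CG17574 on the opposite strand (2R, 12862330 to 12867554, plus strand). It had 8.7, 7.657 and 10.12 CPM in group-housed females, against 1.17, 0.9984 and 1.648 CPM in group-housed males. The sexes did not overlap (log2 fold change 2.78 ± 0.42 (SE), edgeR adjusted p = 0.0008703; 2.68 in batch 1 and 2.58 in batch 2), but the call was lost in batch 2 alone (adjusted p = 0.0578). In isolated flies it had 4.212, 3.152 and 4.866 CPM in females, against 1.912, 1.865 and 1.378 CPM in males, also without overlap, but this difference did not pass (log2 fold change 1.23 ± 0.42 (SE), edgeR adjusted p = 0.1276). CG17574 itself was at 43.3 CPM in group-housed females and 36.5 CPM in group-housed males (log2 fold change 0.24, edgeR adjusted p = 0.64).

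297{}93 (FBti0019612) is a 5875 bp copy in an intron on the gene's strand (X, 10095218 to 10101092, plus strand). It had 69, 40 and 39 reads in isolated females, against 0, 1 and 0 reads in isolated males. In groups it had 17, 10 and 44 reads in females, against 0, 1 and 0 reads in males. All 6 female libraries had reads and 4 of the 6 male libraries had none. The ratio of rates was 353 in isolated flies, with a 95% counting interval of 62.4 to 14000, and 66.4 in groups, with an interval of 11.5 to 2660. Both differences passed (edgeR adjusted p = 7.746e-05 in isolated flies and 0.003111 in groups).

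mdg1{}1047 (FBti0020158), 7390 bp in an intron of CG14082 on the gene's strand (3L, 19117098 to 19124487, minus strand), had 9.72, 6.755 and 5.213 CPM in isolated females, against 0.2294, 0.3108 and 1.181 CPM in isolated males. These did not overlap (log2 fold change 3.98 ± 0.72 (SE), edgeR adjusted p = 0.003524; 4.47 in batch 1 and 2.84 in batch 2), and the call was lost in batch 2 alone (adjusted p = 0.137). In groups it had 1.905, 1.843 and 5.577 CPM in females, against 0.39, 0.1664 and 0.6339 CPM in males. That difference also passed, at 2.79 ± 0.71 (log2, SE; edgeR adjusted p = 0.04643), but lost its call in 8 of the 12 fits that left out 1 library (each isolated female, each group-housed male, and group-housed female replicates 0 and 2), with adjusted p up to 0.179.

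Circe{}2326 (FBti0060387), 815 bp outside genes on 2R (6419005 to 6419819, plus strand), had 63, 32 and 46 reads in group-housed females, against 2, 0 and 0 reads in group-housed males. In isolated flies it had 8, 2 and 6 reads in females, against 0, 0 and 1 reads in males. The ratio of rates was 65.9 in groups (95% counting interval 17.9 to 550; edgeR adjusted p = 0.00102) and 38.2 in isolated flies (5.93 to 1600; edgeR adjusted p = 0.0198). All female libraries were above all male ones in each housing. The call in isolated flies was lost without isolated female replicate 0 or 2 or isolated male replicate 0 or 1, with adjusted p up to 0.106. 297{}4635, outside genes on 3L, had 14, 6 and 22 reads in group-housed females, against 1, 0 and 0 reads in group-housed males (ratio 39.3, interval 6.67 to 1590; edgeR adjusted p = 0.02979). It lost its call in 5 of the 12 fits without 1 library, with adjusted p up to 0.164: without group-housed female replicate 0 or 2 and without each group-housed male library; in batch 2 alone it had an adjusted p of 0.115. CG43968, the nearest gene, on the same strand at 11292 bp, was also higher in females, with 2.06, 1.56 and 10.5 CPM in group-housed females, against 0.26, 0 and 0.507 CPM in group-housed males (log2 fold change 3.97 ± 0.88 (SE), edgeR adjusted p = 0.0195), and by 4.12 ± 0.92 in isolated flies (edgeR adjusted p = 0.0156). CG14082, the gene around mdg1{}1047, did not pass (edgeR adjusted p = 0.598 in groups and 0.535 in isolated flies).

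On the lower side, transib2{}4381 (FBti0062442), 1432 bp on X, had 2, 0 and 0 reads in group-housed females, against 28, 4 and 20 reads in group-housed males. The ratio of rates was 0.036, with a 95% counting interval of 0.00424 to 0.137 (edgeR adjusted p = 0.01319), and the call was lost without group-housed female replicate 0 or 1 or group-housed male replicate 0 or 2, with adjusted p up to 0.087, and in batch 2 alone (0.15). The nearest annotated transcript, asRNA:CR45009 at 739 bp on the same strand, was at 2.99 CPM in group-housed females and 3.26 CPM in group-housed males (edgeR adjusted p = 0.942).

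**Figure D4:**
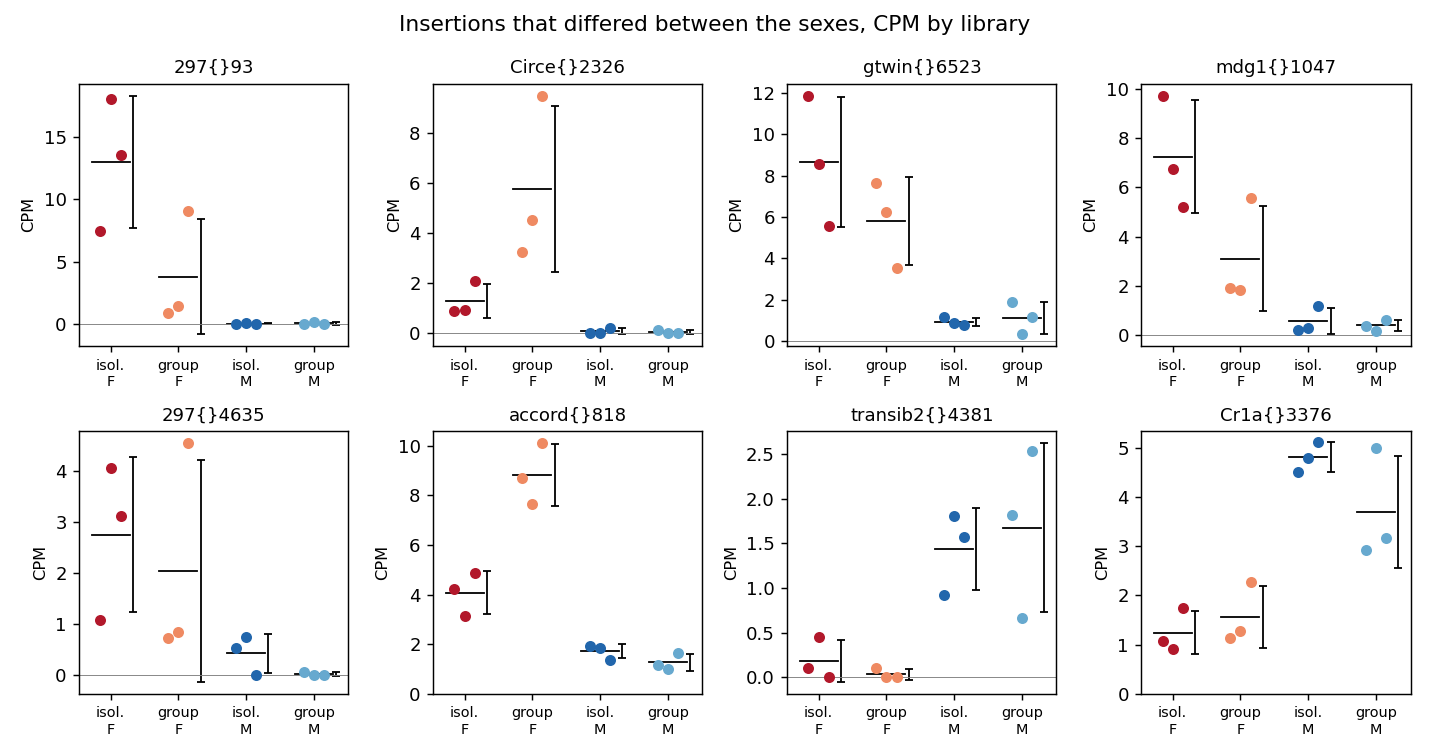
CPM (y axes, linear) of 8 insertions that differed between the sexes in at least 1 housing, in each library (points) of isolated (isol.) and group-housed (group) females (F) and males (M); lines are means and bars SD. In the first 4 panels every female library is above every male library of the same housing, and transib2{}4381 and Cr1a{}3376 are higher in males. Some insertions higher in females reached 10 reads in females only, and transib2{}4381 in males only. This way of entry favours such a separation of the sexes.

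The sex comparison in groups also changed with single libraries. Without group-housed female replicate 0, group-housed male replicate 0 or group-housed male replicate 2, 4 members passed, and without group-housed female replicate 2, 10 did. The counts over all features in these fits are not given here, so a change of the members apart from the rest cannot be read from them. Markers of gonadal tissue were uneven over the libraries. A list of 6 ovary and germline genes summed to 163 CPM in group-housed female replicate 1 and to 43.7 and 62.6 CPM in isolated female replicates 1 and 2, against 5.58 to 17.3 CPM in the remaining libraries. Lists of 6 testis and 5 accessory gland genes summed to 117 and 65.8 CPM in group-housed male replicate 0. No gene of these lists was at 0 in all libraries. The part of gonadal RNA in these differences was not tested.

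Among isolated flies 6 of 410 members passed between the sexes (1.46%), where 4.24% of all features did, 5 of them higher in females (3.6% of all features) and 1 lower (0.635%). Of the 6, 297{}93, mdg1{}1047 and Circe{}2326 had reached 10 reads in females only, which left 3 calls among members with 10 reads in both sexes. Those 3 were gtwin{}6523 and INE-1{}3411, higher in females, and Cr1a{}3376, lower in females. Of these, gtwin{}6523 entered the tests through female libraries, which favours a difference between the sexes. For INE-1{}3411, the 29.59, 24.32 and 28.85 CPM in isolated females stood above 8.107, 11.44 and 10.83 CPM in isolated males (log2 fold change 1.44 ± 0.27 (SE), edgeR adjusted p = 0.004217; 1.84 in batch 1 and 1.23 in batch 2). apolpp was higher in isolated females too, by 1.20 ± 0.23 (log2, SE; edgeR adjusted p = 0.00603). Cr1a{}3376 (FBti0061437), a non-LTR copy of 1803 bp on 2R at 952 bp from CG17508, had 1.08, 0.9007 and 1.738 CPM in isolated females, against 4.512, 4.786 and 5.118 CPM in isolated males. The sexes did not overlap (log2 fold change -1.92 ± 0.49 (SE), edgeR adjusted p = 0.03513), but this call was lost without any 1 of the isolated libraries of either sex and without group-housed female replicate 0 or group-housed male replicate 0 or 1, with adjusted p up to 0.152. In batch 2 alone the calls of INE-1{}3411 (adjusted p = 0.13), Cr1a{}3376 (0.297) and Circe{}2326 (0.162) were lost. LTR members had a median log2 fold change of 0.40 and INE-1 members of -0.28, against -0.12 over all members and -0.02 over all features.

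No member's response to isolation differed between the sexes past the threshold (edgeR), where 0.44% of all features did. At an unadjusted p under 0.05 there were 9 of 410 members, where 7.1% of all features stood. DESeq2 and limma-voom also called 0, and edgeR without a filter beyond 1 read called 1. The smallest p-values were those of accord{}818, INE-1{}3410 and jockey2{}pho[1682]. accord{}818 was at 4.08 ± 0.865 CPM in isolated females and 8.83 ± 1.24 in group-housed females, and at 1.72 ± 0.296 in isolated males and 1.27 ± 0.337 in group-housed males (SD, n = 3 each). The female response minus the male response was -1.55 ± 0.58 (log2, SE; edgeR adjusted p = 0.523). For INE-1{}3410 it was 1.15 ± 0.48 (edgeR adjusted p = 0.6107). For jockey2{}pho[1682], a non-LTR copy in an intron of the Polycomb-group gene pho, it was -0.82 ± 0.35 (edgeR adjusted p = 0.6391).

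Summing all rows of a family left 84 families in the tests. The 8 with the highest level were INE-1, 1360, Cr1a, Doc, HMS-Beagle, F, copia and opus, and none of these passed in any contrast. INE-1, with 2234 rows, had 988.2, 940.9 and 948.7 CPM in isolated females, against 742.1, 719.9 and 1122 CPM in group-housed females. It had 1122, 921.7 and 1286 CPM in isolated males, against 840.9, 1021 and 1190 CPM in group-housed males. The housing groups overlapped (log2 fold change 0.16 ± 0.20 in females and 0.13 ± 0.20 in males (SE), edgeR adjusted p = 0.7748 and 1). copia, an LTR family of 35 rows, had 76.57, 94.58 and 64.89 CPM in isolated females, against 34.81, 30.04 and 64.18 CPM in group-housed females. Every isolated female library was above every group-housed one, yet the difference did not pass (log2 fold change 0.88 ± 0.41 (SE), edgeR adjusted p = 0.3535). In males copia moved by 1.67 in batch 1 and -0.04 in batch 2 on the log2 scale.

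Isolation in females raised the sum of diver, an LTR family none of whose 11 insertions met the read minimum (1 of 84 families, 1.19%, against 3.66% of the 9909 rows tested and 3.43% higher). The family had 16, 10 and 5 reads in isolated females, against 1, 1 and 1 reads in group-housed females. Only its isolated female libraries carried it past the expression filter. It thus entered the test through the group where it was high, and the separation of these groups was partly set by that filter. All isolated female libraries were above all group-housed ones (log2 fold change 4.33 ± 0.90 (SE), edgeR adjusted p = 0.01061; 2.85 in batch 1 and 2.95 in batch 2). In males it had 2, 7 and 7 reads after isolation, against 5, 2 and 2 reads in groups, and the difference between the responses did not pass (edgeR adjusted p = 0.3789). The call was lost without isolated female replicate 1 or group-housed female replicate 0, with adjusted p up to 0.114, and without isolated female replicate 0 the family did not pass the expression filter. Without group-housed female replicate 2, 5 families passed, namely 297, diver, opus, F and BS; BS was named after its values were seen. In the 3 fits just named none did.

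Between the sexes in groups 2 families passed, accord and gtwin (2.38%, against 2.74% of all rows), and both were higher in females, as were 1.48% of all rows. Each rested on 1 insertion: accord{}818 held 100% of its family's reads and gtwin{}6523 96.8%. The family gtwin thus entered the tests through female libraries, as its insertion did. gtwin had 2.32 ± 0.47 and accord 2.77 ± 0.42 (log2 fold change, SE; edgeR adjusted p = 0.009615 and 0.0008838). Among isolated flies gtwin (2.99 ± 0.48, edgeR adjusted p = 0.001483) and 297 passed, again 2.38%, against 4.34% of all rows and 3.67% higher in females. The family 297, with 88 rows, had 16.01, 30.18 and 22.21 CPM in isolated females, against 8.121, 6.761 and 7.706 CPM in isolated males. The sexes did not overlap (log2 fold change 1.54 ± 0.37 (SE), edgeR adjusted p = 0.0265; 0.96 in batch 1 and 1.81 in batch 2). In groups 297 had 7.217, 5.782 and 20.08 CPM in females, against 5.904, 5.996 and 6.224 CPM in males, which overlapped (edgeR adjusted p = 0.4003). The call of 297 was lost without any 1 isolated female library and without isolated male replicate 1 or 2, with adjusted p up to 0.152, and with library totals alone as the scaling (0.0514). The insertions called alone, 297{}93 and 297{}4635, held 63.1% of the family's reads in isolated females and 7.87% in isolated males. Without them the family had 7.46, 8.11 and 5.55 CPM in isolated females, against 7.59, 5.95 and 7.71 CPM in isolated males, and the log2 fold change was -0.01 (edgeR adjusted p = 0.997). This alternative was added after seeing the data. The insertions left out were those called in these same data, so their removal had to bring the difference nearer 0. Its outcome adds no support. The call of gtwin in groups was lost without group-housed female replicate 0 (adjusted p = 0.0589). In groups, 1 family passed without group-housed female replicate 0, 3 without group-housed male replicate 0 and 5 without group-housed female replicate 2. In isolated flies, 4 passed without group-housed female replicate 2 and 1 when isolated female replicate 1 or isolated male replicate 2 was left out.

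No family passed in isolated over group-housed males (edgeR, against 0.0807% of all rows) or in the difference between the responses (0.444%). At an unadjusted p under 0.05 there were 0 families in males and 2 in the difference, and DESeq2 and limma-voom called 0 in both. The smallest p-values in males were those of 3S18, invader4 and I, at 0.29 ± 0.15, 1.69 ± 0.88 and 0.77 ± 0.48 (log2 fold change, SE). In the difference they were those of diver, accord and Circe, at 3.72 ± 1.27, -1.55 ± 0.58 and -1.42 ± 0.68.

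**Figure D5:**
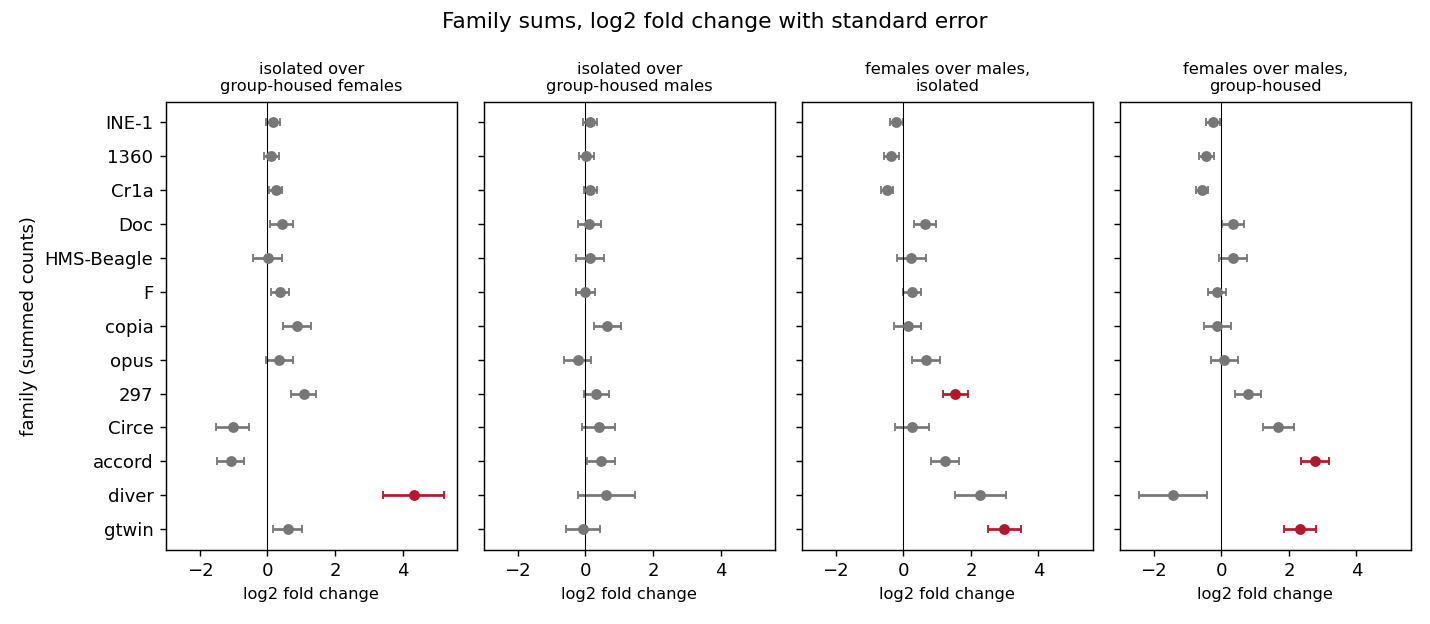
Log2 fold change (x axes) with standard error (bars) of the summed counts of 13 families (y axis) in 4 comparisons; red marks families past the edgeR threshold of 0.05. The 8 families with the highest level (top) are grey in all panels, and the red points are diver after isolation in females and 297, gtwin and accord between the sexes.

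The 3 members placed on the Y chromosome, opus{}6549, opus{}6550 and opus{}6552, had reads in both sexes although females carry no Y. opus{}6550 (FBti0215327, Y, 783295 to 790909, plus strand) had 133, 20 and 47 reads in isolated females, against 105, 158 and 54 reads in isolated males. It had 147, 75 and 117 reads in group-housed females, against 105, 67 and 80 reads in group-housed males. In CPM the female and male libraries overlapped in each housing, and none of the 3 passed between the sexes (edgeR adjusted p of 0.4559 to 0.9232). A hand-picked list of Y chromosome genes had 0 or 1 reads in each female library, against 1 to 8 in the male libraries other than group-housed male replicate 0. That library had 85 and also the highest sum of testis genes (117 CPM). The listed genes were near 0 in most male heads too, so they say little on Y-linked RNA in heads. Which copy of opus gave the reads in females was not tested. Reads aligned to several places, 1.78% to 4.03% of each column, stood in a line of their own, and copies of a family share sequence, so the count of a single copy is uncertain for all young families named here.

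Insertions and the genes around them were set side by side as a description. For 208 tested members in same-strand introns of 128 genes, Pearson's r between the log2 fold changes of insertion and gene was 0.1 in isolated over group-housed females, 0.15 in males, 0.12 for the sexes in groups and 0.07 for the sexes in isolation. Spearman's rho was 0.01 in isolated over group-housed females, 0.17 in males, 0.12 for the sexes in groups and 0.21 for the sexes in isolation. Insertion and gene had the same sign in 101 of the 208 in females, 108 in males and 144 in each comparison of the sexes. In the comparisons of the sexes most of the 410 tested members were below 0 (273 in groups and 232 in isolation). Where the genes lean the same way, signs agree more often without any link. That level was not computed. For 12 members in same-strand exons, r was 0.59 in females, -0.05 in males, -0.23 for the sexes in groups and 0.5 for the sexes in isolation. These points share libraries, and several share a gene. Across 288 members and their 164 genes, the mean level of the insertion per kb and that of its gene in CPM had r = 0.24 on the log2 scale and a Spearman's rho of 0.32.

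Among the genes that silence transposable elements, 1 passed after isolation. Of 54 listed genes of the small RNA and heterochromatin pathways, 53 were in the table and 47 were tested. Isolation in females raised 1 and lowered none, where 3.48% of all features passed. At an unadjusted p under 0.05 stood mino, which was higher, and 7 genes that were lower in isolated females (14.9% of the 47, against 5.57% of all features). These 7 were HP1b, Lhr, ADD1, loqs, qin, Su(var)3-3 and HP4, with log2 fold changes of -1.31 to -0.32, and none of them passed. The median log2 fold change was -0.14 over the list, against -0.02 over all features. In males 0 passed, and 0 had an unadjusted p under 0.05, against 2.66% of all features. The gene that rose was mino, a mitochondrial glycerol-3-phosphate acyltransferase that also takes part in making PIWI-bound small RNAs. It had 694, 644 and 663 CPM in isolated females, against 332, 357 and 293 CPM in group-housed females (log2 fold change 1.03 ± 0.18 (SE), edgeR adjusted p = 0.00228), with no overlap. The call was lost in batch 2 alone (adjusted p = 0.12), as well as with replicate 0 standing alone for isolated females (0.249). The summed fat body list given above, with the limits given there, was also higher in the same libraries. It stood at 34600 to 50900 CPM in isolated females, against 13100 to 23500 CPM in group-housed females. The part of fat body RNA in the difference of mino was not tested. In males mino averaged 428 ± 25.4 CPM after isolation, against 429 ± 109 in groups (SD, n = 3 each).

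Between the sexes, fs(1)Yb, a Tudor-domain factor of small RNA production known from the somatic cells of the fly ovary, was lower in females. Its female levels lay under the expression filter, so fs(1)Yb entered the tests only through the male libraries, where it was high. It had 0.257, 0.142 and 0.207 CPM in group-housed females, against 2.21, 2.33 and 1.9 CPM in group-housed males, on 7 and 63 reads (log2 fold change -3.33, edgeR adjusted p = 0.0238). In isolated flies it had 2 reads in females and 67 in males, a ratio of 0.0712 with a 95% counting interval of 0.00845 to 0.267 (edgeR adjusted p = 0.038). The call in groups was lost without any 1 group-housed male library and without group-housed female replicate 0 or 1, and that in isolated flies without any 1 isolated female or group-housed male library, isolated male replicate 0 or 1 or group-housed female replicate 0. mino was higher in isolated females than in isolated males by 0.64 (log2; edgeR adjusted p = 0.0488), a call lost without any 1 isolated library of either sex, group-housed female replicate 0 or group-housed male replicate 0, and with library totals alone (0.155). Of the 47 tested genes, fs(1)Yb alone passed between the sexes in groups (2.13%, where 2.73% of all features did), and fs(1)Yb and mino in isolation (4.26%, where 4.24% did). AGO2, the somatic silencing protein, averaged 360 ± 6.03 CPM in isolated females and 352 ± 17.4 in group-housed females, and 336 ± 13.6 in isolated males and 334 ± 28.3 in group-housed males. No listed gene passed in the difference between the responses, and 2 of the 47 had an unadjusted p under 0.05, against 7.1% of all features.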

How the data were processed

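The values were whole-number read counts per feature, which the authors deposited without normalisation. Per the submitters' processing notes, HTSeq 2.0.5, STAR 2.7.10b, edgeR 4.4.1, Picard 2.27.5 and R 4.4.0 took part; their roles, the build, the annotation and the strand setting stand in no source used here. Lines naming no feature (10.2% to 13.2% of a column) were left out. The deposited column of isolated male replicate 1 is marked as merged and was used as 1 replicate. All replicate pairs differed by more than sampling noise (chi-square divided by its degrees of freedom was 2.36 to 6.23 over insertions). A further column tied to no sample was not used.

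Members were found by identifier. Of 5736 insertion rows, 5734 were found in the BDGP6.54 annotation, which gave place and strand. A family's class was set by hand from its name. In edgeR 4.0.16 (R 4.3.3), 10238 features passed filterByExpr by group (minimum count 10, minimum total 15), TMM scaling was used, and 1 robust quasi-likelihood model with group means and batch was fitted (7 residual degrees of freedom). Benjamini-Hochberg adjustment covered all features, or all 9909 rows once each family was 1 summed row, and the threshold was 0.05. Standard errors are the log2 fold change over the square root of F. Within-batch differences are in log2 CPM with a prior count of 2, and batch 1 has 1 library per group. Intervals cover counting error only. The steps were tested on simulated data.

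Named were the 10 members and 8 families with the highest level, up to 8 members and 5 families called in each direction of a contrast (or the 3 smallest p), all Y members, those at the border of the rule, and up to 4 silencing genes per contrast; of the last only those that passed are given. The gene around 297{}93 is not reported here. Members, lists and rules were chosen with earlier results of these data known. Alternatives were other scalings, filters, batch terms, tools and subsets of libraries.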

Additional observations from a re-analysis of the deposited data

How the results depend on the processing

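Of 800 values of named insertions, families and genes under the alternatives, 696 kept direction and side of the threshold. A further 102 kept the direction but lost the call, and 1 had no adjusted p (diver under DESeq2). The last 1 turned round (family 297 between isolated females and males, -0.01 without the insertions called alone). The 800 include results in males and in the difference between the responses that were named for their smallest p. These were never called and could not lose a call, so the 696 make the calls look firmer than they were. Isolation in females called 1 insertion, against 0 with library totals alone, 4 without a filter beyond 1 read, 4 in DESeq2, 5 in limma-voom, 2 with the replicate block in place of the batch, 0 in batch 2 alone and 0 with isolated females represented by replicate 0. It called 1 family, against 2 in limma-voom and 0 with the filter of 10 reads in 3 libraries, in batch 2 alone, from only the groups compared, with isolated female replicate 0 alone, from members only and without each family's most-read insertion. In males and in the difference between the responses, 1 insertion each was called without a filter beyond 1 read. Between the sexes in groups, 7 insertions became 2 in batch 2 alone and 3 from only the groups compared, and 2 families became 4 without a filter, 0 in batch 2 alone 1 without the most-read insertion and 0 without the insertions called alone. Between the sexes in isolation, 6 insertions became 13 without a filter, 10 in DESeq2, 11 in limma-voom, 1 in batch 2 alone, 10 from only the groups compared and 2 with isolated female replicate 0 alone, and 2 families became 4 in DESeq2, 5 in limma-voom, 0 in batch 2 alone, 5 from only the groups compared, 0 with isolated female replicate 0 alone and 0 without the insertions called alone. Leaving out 1 library gave 1 to 7 insertions and 0 to 5 families for isolation in females, 4 to 10 and 1 to 5 between the sexes in groups, 4 to 8 and 1 to 4 in isolation, and 0 in males and in the difference. Batch 2 alone and the subsets have fewer samples. The counts over all features under the alternatives are not given here, so a change of the insertions apart from the rest cannot be read from these counts. Leaving out the insertions called alone takes out the rows behind the family calls between the sexes, so its lower family counts follow from that choice. For the rest the cause was not tested. The replicate block moved no other count by over 1.5 times. Deviations of same-numbered libraries correlated at -0.184 to 0.505 over 18 pairs, and 9 of 12 libraries correlated best with their own number. Replicate 0 makes up batch 1, so these values include the batch. Within batch 2, the differences between replicates 1 and 2 correlated between groups at -0.186 to 0.287. The numbers were taken to pair nothing beyond the batch. The shallowest library, isolated female replicate 1, had 2584050 counts.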
